A study of Mus musculus with 12 samples.

Results

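Dentate granule cells are the principal neurons of the dentate gyrus, the entry station of the hippocampus. The genes described here are 10 known markers of these cells, Prox1, Neurod1, C1ql2, C1ql3, Calb1, Dsp, Tdo2, Trpc6, Npnt and Dock10. They were chosen as known markers of the cell type and were matched by symbol to Ensembl identifiers. The rule uses no measured value, but the choice was made with earlier results of these data known. Shares of all genes are given beside the counts of members as a description, not as a test of the list. All 10 were found among the 55487 gene identifiers in the count files, and all are annotated as protein coding.

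The study profiled tissue RNA of 12 male mice, 1 library per mouse, with 3 mice in each of 4 groups. In the forebrain at postnatal day 0 (P0), 3 knockouts carried Cmv-cre and Auts2-ex7-/-, and their 3 controls were littermates labelled BL6 WTLM. In the hippocampus at postnatal day 14 (P14), 3 knockouts carried Nes-cre and Auts2-ex7-/-, and their 3 controls were littermates labelled auts2-ex7-fl-het, heterozygous for the floxed allele. Auts2 encodes a neurodevelopmental regulator made as a long and a short isoform, and loss of exon 7 is aimed at the long one. Cmv-cre is active throughout the body, whereas Nes-cre is active in neural progenitors and so reaches their progeny but also other neurons and glia besides granule cells. The labels do not say whether the P14 controls carried Nes-cre, so their recombination state is not given. Tissue, age, Cre line and kind of control change together between P0 and P14. So do the library numbers in the labels, 1280 to 1285 at P14 and 1407 to 1416 at P0. The parts of these differences cannot be told apart.

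Granule cells are born from progenitors that pass through a neuroblast stage, and most of them arise after birth in rodents. Prox1 and Neurod1 are transcription factors switched on early in this lineage, Prox1 being needed to establish and keep granule cell identity and Neurod1 for the survival and differentiation of the new neurons. The other genes mark later stages, when granule cells extend mossy fibres to the pyramidal neurons of CA3, assemble their synapses and acquire the calcium buffer calbindin. In tissue RNA, fewer granule cells and less RNA per granule cell cannot be told apart.

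Library totals ran from 11247150 to 16796797 counts at P0 and from 16830720 to 23340621 at P14. Levels are given in CPM, that is, read counts relative to the library size, with library sizes scaled by TMM over all 12 libraries. Auts2 itself was at 97.5, 98.0 and 110 CPM in the P14 controls and 93.0, 77.5 and 75.2 CPM in the P14 knockouts, and the difference did not pass the test (log2 fold change -0.30, SE 0.09, edgeR adjusted p 0.111). At P0 Auts2 was at 160.4, 136 and 155 CPM in the controls and 165, 182 and 161 CPM in the knockouts (0.16, SE 0.08, edgeR adjusted p 0.362). These gene-level counts sum all isoforms and do not measure exon 7, so they do not check the knockout labels. Of the hindbrain and midbrain genes looked at, Hoxa2 had 0 counts in all 12 libraries, whereas Hoxb4, En1 and En2 had counts in both P14 groups. En2 was tested at P14 and did not pass (log2 fold change -0.70, SE 0.38, edgeR adjusted p 0.402). Every knockout was below every control for En2, as for 10.6% of all genes tested at P14. The P14 controls differed among themselves, and leaving out the third control raised the number of genes called at P14 from 342 to 1808.

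The promoters of 3 members called lower at P14 are shown as examples that differ in the E-box, the CANNTG motif bound by Neurod1 and its relatives. A link between this motif and the P14 result was not tested. Each sequence is the 250 bases upstream of the RefSeq start site on GRCm38.p6, 5′ to 3′ on the gene's strand, with CANNTG matches in capitals. The windows are chr1:190170828-190171077 on the minus strand for Prox1, chr1:120340332-120340581 on the plus strand for C1ql2 and chr13:38151044-38151293 on the plus strand for Dsp.
Prox1: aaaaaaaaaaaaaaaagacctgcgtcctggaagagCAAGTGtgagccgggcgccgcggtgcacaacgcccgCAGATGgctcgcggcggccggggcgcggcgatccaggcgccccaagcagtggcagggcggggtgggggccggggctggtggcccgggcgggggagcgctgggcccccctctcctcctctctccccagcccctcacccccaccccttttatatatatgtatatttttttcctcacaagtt
C1ql2: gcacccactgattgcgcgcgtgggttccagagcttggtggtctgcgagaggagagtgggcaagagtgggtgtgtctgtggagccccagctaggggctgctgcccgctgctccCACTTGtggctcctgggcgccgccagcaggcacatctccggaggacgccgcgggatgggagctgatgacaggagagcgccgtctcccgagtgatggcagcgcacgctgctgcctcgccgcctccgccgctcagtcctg
Dsp: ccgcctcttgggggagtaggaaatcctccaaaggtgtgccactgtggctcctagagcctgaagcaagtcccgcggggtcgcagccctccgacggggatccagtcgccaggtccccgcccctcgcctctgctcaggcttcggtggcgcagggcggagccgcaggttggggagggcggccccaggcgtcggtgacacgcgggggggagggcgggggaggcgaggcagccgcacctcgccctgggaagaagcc
The Prox1 window holds CAAGTG and CAGATG, at -215 and -179 from the start site. The C1ql2 window holds CACTTG at -138, and the Dsp window has no match. CANNTG reads the same on both strands, and it was found in 5 of the 9 members with a promoter entry, Prox1, Neurod1, C1ql2, C1ql3 and Dock10, against 66.0% of 27025 promoter windows of the same length. CAGATG, a form of CANNTG, was found on either strand in Prox1 and Dock10, against 14.5% of all windows. CAGCTG, another form, was in 0 of the 9 and in 12.8% of all windows. These matches are letters in a window and were not tested as binding sites, and no binding was measured here.

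The granule cell genes were first compared between knockout and control hippocampus at P14. All 10 members were lower in every knockout library than in every control library, where 10.6% of all 17208 genes tested were lower in this way. The fall passed the test for 8 members, Prox1, Neurod1, C1ql2, C1ql3, Calb1, Dsp, Tdo2 and Trpc6, against 0.773% of all genes called lower. Npnt and Dock10 did not pass. The median log2 fold change of the 10 members was -0.70, beside -0.0074 over all genes tested, of which 51.5% were below 0. Calls were made with edgeR's quasi-likelihood test at a Benjamini-Hochberg adjusted p below 0.05 over all genes tested, on the 6 libraries of each context.

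**Figure D1:**
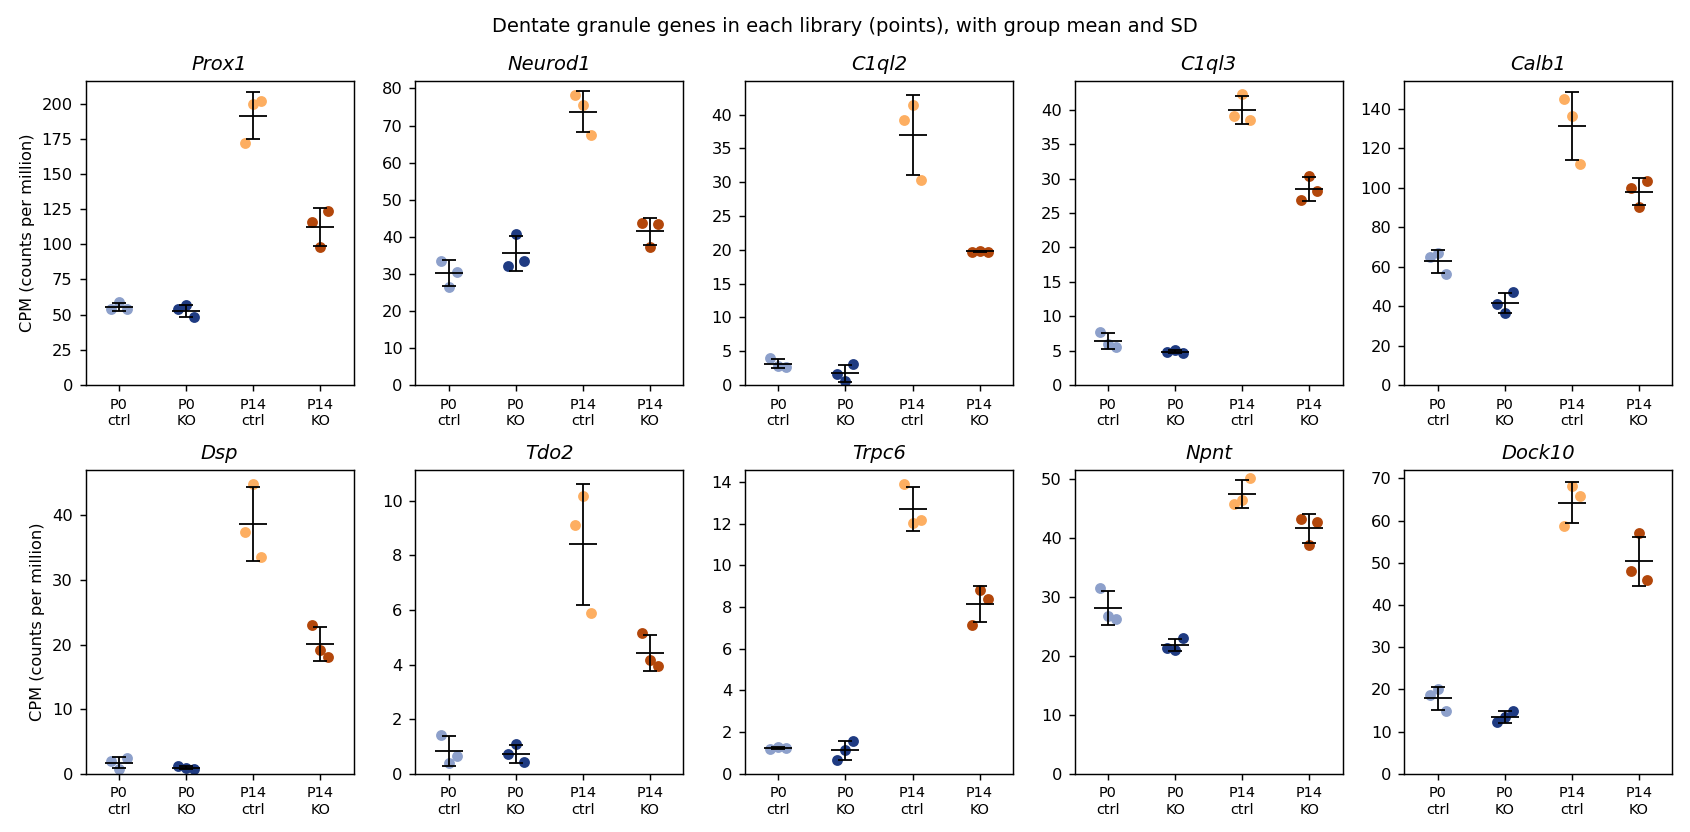
CPM of each of the 10 genes in the 12 libraries (points) by group, with the group mean and SD (n = 3 each); each panel has its own axis. In all 10 panels the P14 control libraries lie above the P14 knockout libraries, and at P0 the groups are apart for C1ql3, Calb1 and Npnt.

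Prox1 (ENSMUSG00000010175; GRCm38 chromosome 1, 190118035 to 190170714, minus strand), the homeobox factor of granule cell identity, was at 172, 199.7 and 202 CPM in the P14 controls and at 116, 97.7 and 124 CPM in the knockouts. The lowest control thus stood well above the highest knockout. Prox1 fell by 40.9%, with a log2 fold change of -0.76 (SE 0.10, 95% interval -0.97 to -0.55, edgeR adjusted p 0.00111). A transcript on the opposite strand, Prox1os, shares 133 exonic bases with it, and the unstranded counts cannot separate reads there. Prox1os had 78, 87 and 65 counts in the P14 controls and 44, 42 and 46 in the knockouts, while Prox1 kept 95.9% of its reads in the unstranded column.

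Neurod1 (ENSMUSG00000034701; chromosome 2, 79452521 to 79456751, minus strand), a basic helix-loop-helix factor, was at 78.2, 75.7 and 67.5 CPM in the P14 controls. The knockouts had 43.6, 37.3 and 43.4 CPM. The P14 groups did not overlap. In the P0 forebrain Neurod1 ran from 26.4 to 33.5 CPM in the controls and from 32.2 to 40.9 CPM in the knockouts. Neurod1 fell by 43.4% at P14 (log2 fold change -0.82, SE 0.09, 95% interval -1.01 to -0.63, edgeR adjusted p 0.00025). It shares 201 exonic bases with the neighbouring gene Cerkl.

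C1ql2 and C1ql3 encode secreted C1q-like proteins that mossy fibre endings release and that recruit glutamate receptors at their synapses in CA3. C1ql2 (ENSMUSG00000036907; chromosome 1, 120340582 to 120343174, plus strand) was at 39.2, 41.4 and 30.3 CPM in the P14 controls and 19.7, 19.9 and 19.7 CPM in the knockouts. The SD of the 3 knockouts was 0.093 CPM, whereas the third control was low among the controls. C1ql2 fell by 46.0% (log2 fold change -0.89, SE 0.11, 95% interval -1.13 to -0.65, edgeR adjusted p 0.000716).

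C1ql3 (ENSMUSG00000049630; chromosome 2, 13003457 to 13011806, minus strand) was at 39.1, 42.3 and 38.5 CPM in the P14 controls and 26.9, 30.3 and 28.2 CPM in the knockouts. The groups did not overlap, and C1ql3 fell by 28.2% (log2 fold change -0.48, SE 0.09, 95% interval -0.66 to -0.29, edgeR adjusted p 0.00935). Its level is uncertain, because a gene model on the opposite strand, Gm37811, covers 1547 of its exonic bases. Over the 12 libraries C1ql3 had 4264 unstranded counts against 10577 in the sum of the strand-specific columns, or 40.3%. The fall was smaller but still past the test in the larger strand column (-0.35, edgeR adjusted p 0.0383).

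Calb1, the calcium-binding protein calbindin, is acquired as granule cells mature and is also made by other neurons, including CA1 pyramidal cells and interneurons. Calb1 (ENSMUSG00000028222; chromosome 4, 15881264 to 15908064, plus strand) was at 145, 136 and 112 CPM in the P14 controls and 99.5, 90.3 and 104 CPM in the knockouts. The third control came close to the highest knockout without crossing it. Calb1 fell by 24.7%, the smallest change among the 8 called members (log2 fold change -0.41, SE 0.09, 95% interval -0.61 to -0.21, edgeR adjusted p 0.0355).

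Dsp encodes desmoplakin, a plaque protein of desmosomes that in the hippocampus marks granule cells. Dsp (ENSMUSG00000054889; chromosome 13, 38151294 to 38198577, plus strand) was at 37.4, 44.8 and 33.6 CPM in the P14 controls and 23.0, 19.1 and 18.1 CPM in the knockouts. The groups were far apart relative to their spread. Dsp had the largest estimated fall of the 10 members, by 47.5% (log2 fold change -0.93, SE 0.12, 95% interval -1.19 to -0.67, edgeR adjusted p 0.00131), though its interval overlapped those of Tdo2, C1ql2, Neurod1, Prox1 and Trpc6.

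Tdo2 encodes tryptophan dioxygenase, the first enzyme of the kynurenine pathway, and marks mature granule cells. Tdo2 (ENSMUSG00000028011; chromosome 3, 81957090 to 81976202, minus strand) was at 9.13, 10.2 and 5.91 CPM in the P14 controls and 5.17, 4.18 and 3.94 CPM in the knockouts. The third control was again the lowest control, and the gap to the highest knockout was narrow. Tdo2 fell by 46.5% (log2 fold change -0.90, SE 0.21, 95% interval -1.35 to -0.46, edgeR adjusted p 0.0355).

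Trpc6 encodes a calcium-permeable cation channel. Trpc6 (ENSMUSG00000031997; chromosome 9, 8544142 to 8680741, plus strand) was at 13.9, 12.01 and 12.2 CPM in the P14 controls and 7.16, 8.83 and 8.39 CPM in the knockouts. The groups did not overlap, and Trpc6 fell by 35.5% (log2 fold change -0.63, SE 0.14, 95% interval -0.92 to -0.34, edgeR adjusted p 0.025).

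The remaining members had the smallest differences. Npnt, nephronectin, an extracellular matrix ligand of integrins (ENSMUSG00000040998; chromosome 3, 132881745 to 132950291, minus strand), was at 45.8, 46.4 and 50.1 CPM in the P14 controls and 43.3, 38.8 and 42.7 CPM in the knockouts. Its log2 fold change was -0.18 (SE 0.08, 95% interval -0.36 to -0.001, edgeR adjusted p 0.325). Dock10, a guanine nucleotide exchange factor (ENSMUSG00000038608; chromosome 1, 80501073 to 80758527, minus strand), was at 58.8, 68.2 and 65.9 CPM in the controls and 48.0, 57.0 and 46.0 CPM in the knockouts. Its log2 fold change was -0.34 (SE 0.09, 95% interval -0.54 to -0.14, edgeR adjusted p 0.0787). For both genes the groups were apart by small gaps, and neither difference is called.

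The calls did not rest equally on all animals. Prox1, Neurod1, C1ql2 and Dsp passed in each of the 6 fits that left out 1 P14 library, C1ql3 passed in 4, and Calb1, Tdo2 and Trpc6 each passed in 1. Between 4 and 9 members were called in these fits, with 4 without the first knockout (0.595% of all genes called in either direction) or the second control (0.669%), 5 without the second knockout (1.07%), the third knockout (1.08%) or the first control (0.989%), and 9 without the third control (10.3%).

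**Figure D2:**
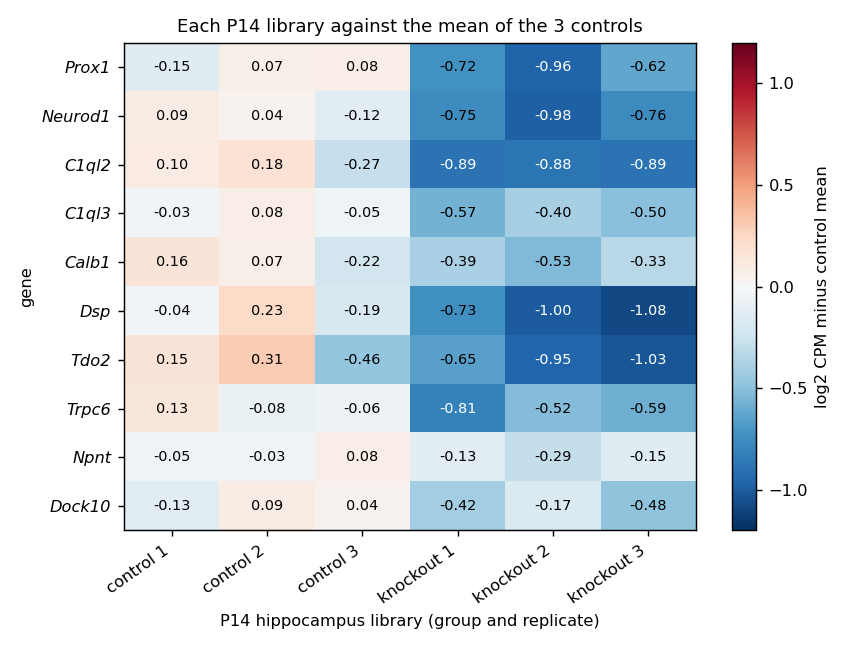
Log2 CPM of each gene in each of the 6 P14 libraries minus the mean of the 3 controls (prior count 2), with the value in each cell. All 30 knockout cells are below 0, and the third control has its lowest value for Tdo2 (-0.46) and its highest for Prox1 (0.08).

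Seen library by library, the members moved together between the P14 groups but not clearly within them. Against the control mean, the median member was at -0.69, -0.70 and -0.61 in the 3 knockouts and at 0.03, 0.07 and -0.09 in the 3 controls, on the log2 CPM scale. In the third control 7 of the 10 members were below their control mean. Once each group's own mean was removed, the Pearson r of the 45 pairs of members over the 6 libraries had a median of 0.02 and ran from -0.79 to 0.91, with 23 pairs above 0. These r describe 6 libraries that share depth and scaling and carry no test.

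**Figure D3:**
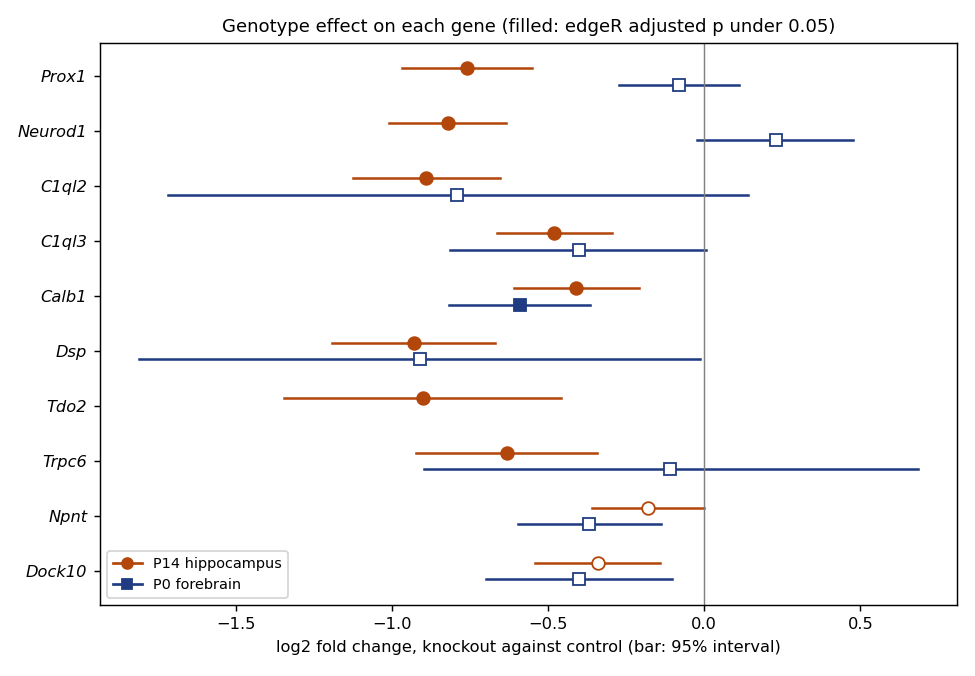
Log2 fold change of knockout against control for each gene at P14 and at P0, with 95% intervals from the edgeR fit; filled points passed an adjusted p of 0.05. The P14 points run from -0.93 to -0.18, whereas at P0 Calb1 is the sole filled point and Neurod1 lies at 0.23. Tdo2 was too low at P0 to be tested.

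The same comparison was made in the newborn forebrain, a tissue taken at an age when few granule cells have matured. Calb1 was the 1 member of 9 tested that passed, lower in the knockouts, where 0.717% of 16176 genes were called lower. The early factors did not pass, and in forebrain RNA their levels cannot be assigned to granule cells. The later markers Dsp, Trpc6 and Tdo2 had means of 1.71, 1.23 and 0.833 CPM in the P0 controls. Prox1 was at 53.9, 58.6 and 54.3 CPM in the P0 controls and 53.8, 56.5 and 48.1 CPM in the knockouts (log2 fold change -0.08, SE 0.09, 95% interval -0.27 to 0.11, edgeR adjusted p 0.708). Neurod1 was at 33.5, 26.4 and 30.6 CPM in the controls and 32.2, 40.9 and 33.4 CPM in the knockouts (0.23, SE 0.12, 95% interval -0.02 to 0.48, edgeR adjusted p 0.363). For both factors the P0 groups overlapped.

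Calb1 was at 64.9, 66.8 and 56.0 CPM in the P0 controls and 40.8, 36.7 and 47.1 CPM in the knockouts. The groups did not overlap, and the log2 fold change was -0.59 (SE 0.11, 95% interval -0.82 to -0.37, edgeR adjusted p 0.0252). The call was lost in 4 of the 6 fits that left out 1 P0 library, those without the first or second knockout or the first or second control, in which at most 15 genes were called in all. Calb1 is not particular to granule cells and is also made by striatal neurons, among others. The 8 striatal markers summed to 329 to 378 CPM in the P0 controls and 296 to 310 CPM in the P0 knockouts, without overlap. Of these markers 6 were below 0, 0 were without counts, and 1 was called lower, Tac1 (-0.73, edgeR adjusted p 0.0197), against 0.717% of all genes. Their part in the Calb1 result was not tested.

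The remaining members tested at P0 had estimates below 0 that did not pass, so that 8 of 9 were below 0 in all, against 50.1% of all genes. C1ql3 (7.73, 5.99 and 5.48 CPM in controls, 4.85, 5.06 and 4.6 CPM in knockouts) and Npnt (31.5, 26.7 and 26.2 CPM, then 21.4, 21.1 and 23.1 CPM) were lower in every knockout than in every control. With Calb1 that makes 3 of the 10 members, against 11.1% of all genes. The C1ql3 log2 fold change was -0.40 (95% interval -0.81 to 0.01, edgeR adjusted p 0.318), and that of Npnt was -0.37 (95% interval -0.60 to -0.14, edgeR adjusted p 0.118). Dock10 was at 18.6, 20.2 and 14.9 CPM in the controls and 12.2, 13.3 and 14.9 CPM in the knockouts (-0.40, 95% interval -0.70 to -0.10, edgeR adjusted p 0.178). Its groups met at the third library of each.

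Several mature markers had few counts at P0. C1ql2 had 47, 35 and 49 counts in the controls and 20, 7 and 51 in the knockouts, where the third knockout had as many as a control (-0.79, 95% interval -1.72 to 0.14, edgeR adjusted p 0.394). Its estimate was -0.40 without the second knockout and -1.52 without the third, and the latter passed (edgeR adjusted p 0.0327). Dsp had 24, 9 and 43 counts in the controls and 15, 10 and 13 in the knockouts (-0.91, 95% interval -1.81 to -0.01, edgeR adjusted p 0.301), and the estimate was -0.55 without the third control. Trpc6 had 14, 16 and 22 counts in the controls and 8, 14 and 26 in the knockouts (-0.11, 95% interval -0.90 to 0.69, edgeR adjusted p 0.916). Tdo2 had 17, 5 and 12 counts in the controls and 9, 13 and 7 in the knockouts, and was removed by the filter on low counts.

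The P0 result depended on which libraries were used. The library numbers in the labels fall into 2 runs at P0, 1407 to 1410 and 1415 to 1416. In the 4 libraries of the first run C1ql2, Calb1, Npnt and Dock10 were called lower, in a fit that called 12.9% of all genes, and without the third knockout C1ql2, Calb1 and Npnt were called, in a fit that called 4.69%. Prox1 and Neurod1 were called in neither.

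Whether the genotype effect differed between the contexts was tested as an interaction in 1 fit of all 12 libraries. Prox1 and Neurod1 passed, both with a lower effect at P14, against 0.423% of 18189 genes called in that direction. The difference was -0.69 for Prox1 (SE 0.13, 95% interval -0.97 to -0.42, edgeR adjusted p 0.00775) and -1.06 for Neurod1 (SE 0.15, 95% interval -1.38 to -0.75, edgeR adjusted p 0.000668). Both passed under all 22 alternatives tried. The effects at P0 and P14 come from separate animals and share no library. Since the P0 counts of Prox1 and Neurod1 cannot be assigned to granule cells, the interaction compares tissues and not granule cells.

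For the other 8 members the interaction did not pass, and the intervals set how much of a difference remains possible. The estimate was 0.16 for Calb1 (95% interval -0.15 to 0.47), 0.04 for Dock10 (-0.31 to 0.39), 0.17 for Npnt (-0.11 to 0.45) and -0.10 for C1ql3 (-0.47 to 0.28). These 4 genes had enough counts at P0 for intervals under 1 log2 unit wide. The estimate was -0.01 for Dsp (-0.86 to 0.84), -0.16 for C1ql2 (-1.10 to 0.78), -0.55 for Trpc6 (-1.26 to 0.16) and -0.73 for Tdo2 (-1.83 to 0.37), so for these a difference as large as that of Prox1 lies inside the interval.

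**Figure D4:**
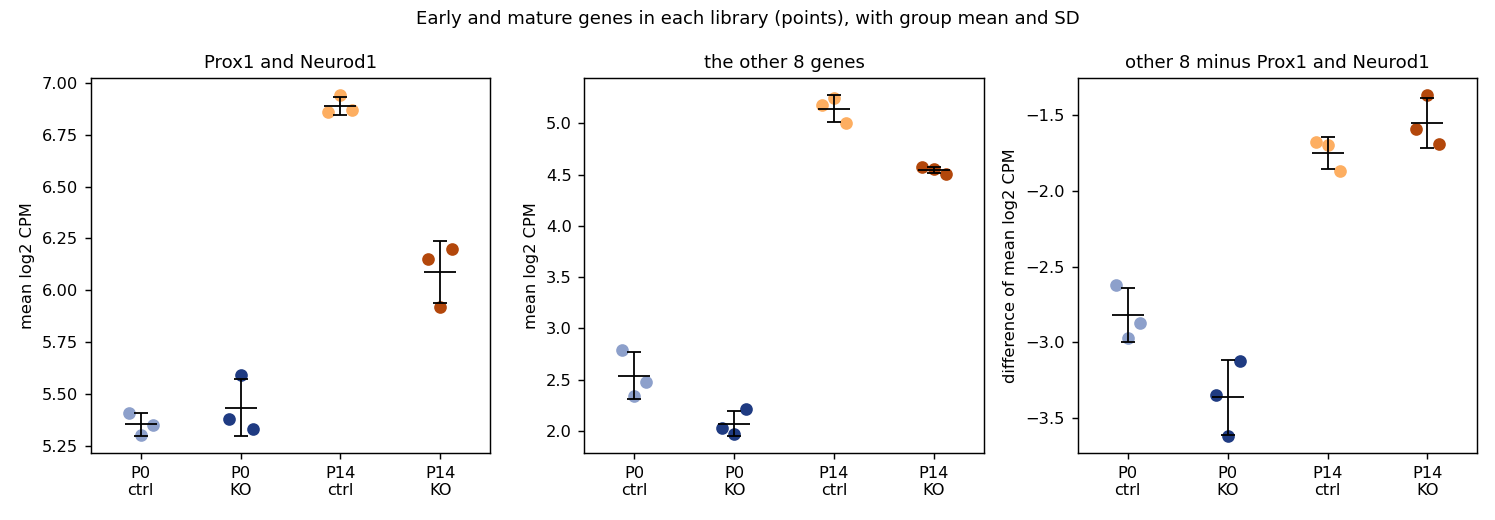
Mean log2 CPM (prior count 2) of Prox1 and Neurod1, of the other 8 genes, and the difference between these means, in each library (points) with group mean and SD (n = 3). The knockouts lie below the controls in the first panel at P14 and in the second panel at both ages, and in the third panel at P0.

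The members were also averaged by stage, as the early pair and the 8 later markers. The mean log2 CPM of Prox1 and Neurod1 was 5.35 ± 0.06 in P0 controls, 5.43 ± 0.14 in P0 knockouts, 6.89 ± 0.04 in P14 controls and 6.09 ± 0.15 in P14 knockouts (SD, n = 3 each). The mean over the 8 later markers was 2.54 ± 0.23, 2.07 ± 0.12, 5.14 ± 0.13 and 4.54 ± 0.03 in the same order. The gap between the 2 means also reflects gene length, so it is compared between groups only. The mean of the later markers minus that of the early pair ran from -2.97 to -2.62 in P0 controls and from -3.62 to -3.12 in P0 knockouts, without overlap. At P14 the same difference ran from -1.87 to -1.68 in controls and from -1.69 to -1.37 in knockouts, which overlap. At P0 the mean of the later markers gives equal weight to C1ql2, Dsp, Trpc6 and Tdo2, which had few counts there. It also includes Calb1, which is not particular to granule cells, and forebrain values cannot be assigned to granule cells. These are descriptions of the libraries, without a test.

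Between the control groups all 10 members were higher in the P14 hippocampus than in the P0 forebrain, a comparison in which 32.3% of all genes were called higher. The difference was 21.7-fold for Dsp, 11.8-fold for C1ql2, 10.3-fold for Trpc6 and 10.2-fold for Tdo2. It was 6.31-fold for C1ql3 and 3.62-fold for Dock10. The early factors differed less, with 3.44-fold for Prox1 and 2.44-fold for Neurod1, as did Calb1 with 2.10-fold and Npnt with 1.69-fold. The edgeR adjusted p was at most 3.47e-07 for any member. The high ratios rest on few counts at P0.

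The order of the 4 groups was nearly the same for every member. By mean CPM, 9 members ran from P0 knockout through P0 control and P14 knockout to P14 control, while for Neurod1 the P0 groups changed places. The P0 groups overlapped for 7 members, all but C1ql3, Calb1 and Npnt. The P14 knockouts lay above both P0 groups for all members but Neurod1. For Neurod1 the lowest P14 knockout (37.3 CPM) was below the highest P0 knockout (40.9 CPM) but above every P0 control (at most 33.5 CPM). The tissues differ, and how often other genes show this order or these gaps was not counted. Between the control groups 32.3% of all genes were called higher at P14. Summed over the 10 members, CPM ran from 618 to 677 in P14 controls and from 403 to 438 in P14 knockouts, and from 194 to 219 and 169 to 177 in P0 controls and knockouts. Per kilobase of exon, the P14 control means were 27.0 CPM for both Neurod1 and Calb1 and 22.8 CPM for Prox1, then 18.5 CPM for C1ql2 and 15.8 CPM for C1ql3, the last understated as above. Dsp, a long transcript, was at 3.997 CPM per kilobase.

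Further genes of the granule lineage gave a mixed picture at P14. Their median log2 fold change was -0.19 for 14 other markers of granule neurons, and 10 of these were below 0, against 51.5% of all genes. Of the 14, edgeR called 4 lower, against 0.773% of all genes, and 0 higher. The 4 were Stxbp6, a syntaxin-binding protein (-0.52, edgeR adjusted p 0.00341), Sema5a, an axon guidance semaphorin (-0.51, 0.00725), Rfx3, a transcription factor of cilia genes (-0.55, 0.00272), and Lct, lactase (-0.63, 0.0111). At P0, 0 of 13 tested passed with edgeR, 2 had an unadjusted p under 0.05 and 2 passed with DESeq2. Markers of granule progenitors and neuroblasts had 5 of 12 called lower at P14, against 0.773% of all genes, and 0 higher, with a median of -0.47. The 5 were the proneural factor Neurog2 (-0.96, edgeR adjusted p 0.0296), the neuroblast genes Igfbpl1 (-0.67, 0.00341) and Sox11 (-0.58, 0.00209), calretinin, Calb2 (-0.44, 0.00927), and the transcription factor Bhlhe22 (-0.48, 0.00613).

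At P0 the early lineage list went the other way, with 2 of 12 called higher, Igfbpl1 (0.61, edgeR adjusted p 0.0267) and Sox11 (0.40, 0.041), 0 lower and a median of 0.36, where 0.192% of all genes were called higher. The interaction was below 0 for all 12 and passed for 5, against 0.423% of all genes called in that direction. The 5 were Igfbpl1 (-1.30), Sox11 (-1.0), Neurog2 (-1.39), Bhlhe22 (-0.74) and Neurod2 (-0.52). These genes mark new neurons of the whole forebrain, not of the dentate gyrus alone. Genes of dentate gyrus formation had 3 of 10 called lower at P14, against 0.773% of all genes. The 3 were the Wnt effector Lef1 (-1.16, edgeR adjusted p 0.00822), the chemokine Cxcl12 (-0.39, 0.0129) and the transcription factor Nfib (-0.46, 0.005). At P0 the transcription factor Lhx2 was called higher (0.42, edgeR adjusted p 0.0368), 1 of 11.

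**Figure D5:**
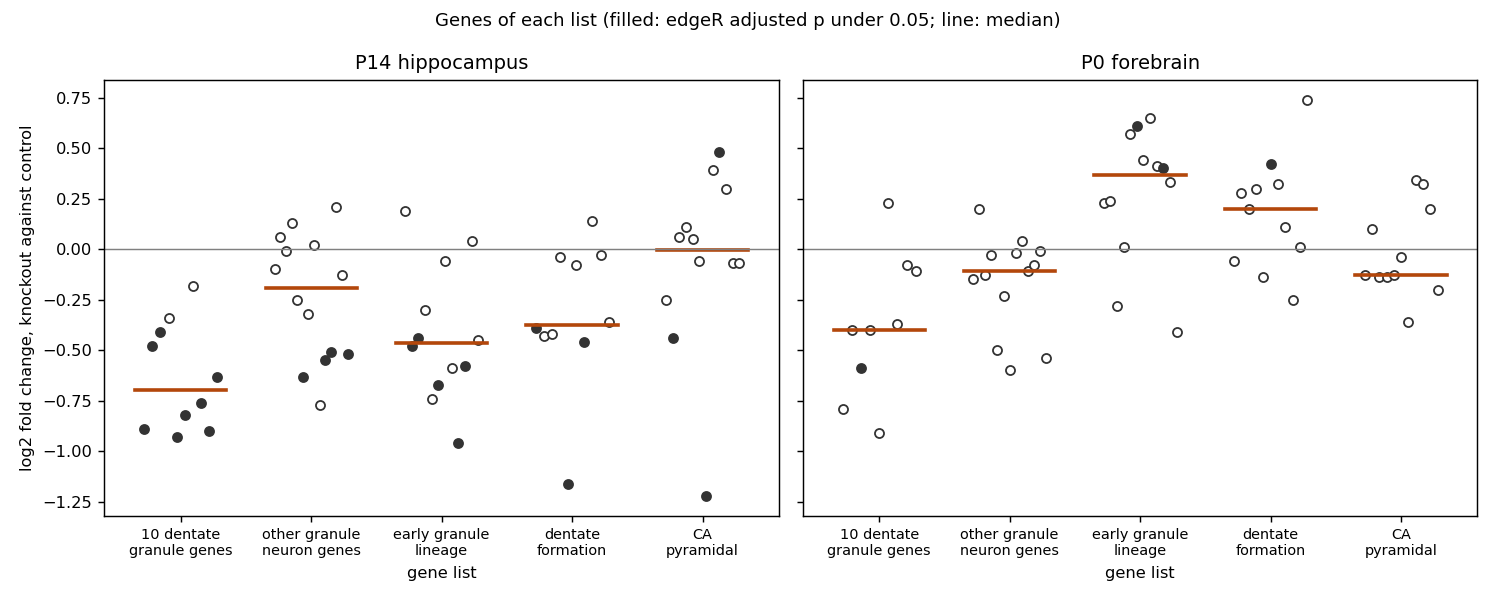
Log2 fold changes of the tested genes of each list (points), with the list's median, at P14 and at P0. The dentate members have the lowest P14 median of the lists shown (-0.70), while CA pyramidal genes lie around 0 (-0.01).

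Pyramidal neurons of the CA fields, the other large neuron class of the hippocampus, had markers called in both directions at P14. Over all genes tested at P14, 1.21% were called higher and 0.773% lower. Of 12 CA markers, 1 was called higher, Mpped1 (0.48, edgeR adjusted p 0.005), and 2 lower, Iyd (-1.22, 0.00259) and Bok (-0.44, 0.017), with a median of -0.01. Their summed level was 925 to 1001 CPM in controls and 969 to 1017 CPM in knockouts, which overlap. At P0, 0 of 11 passed with edgeR, 2 had an unadjusted p under 0.05 and 2 passed with DESeq2.

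Markers of other cells and of tissue next to the hippocampus also differed between the P14 groups. Of 10 cortical excitatory markers 4 were called higher, where 1.21% of all genes were, with summed levels of 2325 to 2561 CPM in controls and 2520 to 2696 CPM in knockouts. They included the transcription factors Mef2c (0.60, edgeR adjusted p 0.000524), Fezf2 (0.49, 0.0169) and Tbr1 (0.40, 0.0441). Of 8 striatal markers 1 was called higher, the dopamine receptor Drd1 (1.46, edgeR adjusted p 0.00341), with a median of 0.93 and summed levels of 153 to 191 CPM against 197 to 304 CPM. Choroid plexus markers were above 0 for 7 of 7, with 0 called by edgeR or DESeq2 and 0 at an unadjusted p under 0.05. Their summed level was 149, 967 and 2543 CPM in the 3 controls and 1366 to 2026 CPM in the knockouts. The 10 vascular and meningeal markers were all below 0, with 0 called by edgeR, 4 at an unadjusted p under 0.05 and 1 called by DESeq2. They summed to 509.7 to 550 CPM in controls and 388 to 492 CPM in knockouts. Of 7 thalamic markers tested 6 were below 0, with a median of -0.28, 4 at an unadjusted p under 0.05 and 1 called lower, Calb2, also counted above. Over all genes, 0.773% were called lower and 51.5% were below 0. The 8 thalamic markers summed to 216 to 260 CPM in controls and 192 to 204 CPM in knockouts, without overlap. No marker of these lists was at 0 counts in any group, and their part in the fall of the granule cell genes was not tested.

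The genes most like the members were sought by the Pearson r of log2 CPM with the members' mean over the 6 P14 libraries, among 13858 other genes. Among the closest were Slc27a3 (r 0.9913), Gmps (0.9893), Brca1 (0.9882) and Pde7a (0.9866), and 125 genes were above 0.95. With 6 libraries in 2 groups, such an r mainly ranks genes by how cleanly the groups separate, and it carries no test. Slc27a3 passed the test (-0.45, edgeR adjusted p 0.0496), and Gmps, Brca1 and Pde7a did not.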

How the data were processed

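The authors deposited raw read counts per Ensembl gene, 1 file per library, from 150 bp paired reads of TruSeq RNA libraries, per the labels' protocols. STAR 2.7.5a, edgeR 3.12 and GRCm38 are named in the submitters' processing notes. The deposited unstranded count was used, since one strand column held 49.88 to 49.98% of the sum of both. Reads that overlap genes on opposite strands are then lost or ambiguous. Symbols and coordinates came from GENCODE vM21 (GRCm38), which gave coordinates for 55227 of 55487 identifiers.

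Groups came from the labels. Replicate numbers follow accession order and pair no animals. R 4.3.3 and edgeR 4.0.16 were used to fit the 6 libraries of each context separately: filterByExpr, TMM, glmQLFit with robust fitting, then glmQLFTest. P-values were adjusted over all genes tested (Benjamini-Hochberg), with a threshold of 0.05. The interaction and the control comparison used all 12 libraries. SEs are the fitted coefficients divided by the root of their F statistics. A prior count of 2 was added for log2 CPM. Intervals cover variation between animals and counting error, and reads without molecular identifiers are not independent molecules. The fits were tested on simulated data with 200 genes changed 2-fold. All genes were simulated with the same variation between animals, and no library was made to deviate. The rates below hold for that setting and need not hold for the real libraries. Of the simulated calls, 2.55% were false at P14, 2.78% at P0 and 3.14% between the controls. For the interaction 7.3% were false, above the threshold of 0.05, and 82.5% of the changed genes were recovered.

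The members and gene lists were chosen with earlier results of these data known. The named genes are the 10 members, Auts2, called genes of the granule neuron, early lineage, dentate formation and CA pyramidal lists, the 5 genes most like the members and genes that overlap a member. Hoxa2, Hoxb4, En1 and En2 were added to check the tissue. A few genes that met this rule are not reported here. Marker lists of further cell types are given by counts, medians and summed levels, and single called genes of these lists were named after their values were seen. Alternatives were DESeq2 1.42.0, the larger strand column, upper-quartile or RLE normalization, offsets for GC content or gene length, low-count filters that were dropped or set to 10 counts per library, fitting that was not robust, a joint fit of the 12 libraries, a threshold of 0.1, the library number series, and leaving out each library. Exon 7 and isoforms were not analysed here.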

Additional observations from a re-analysis of the deposited data

Results flagged for a closer look

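The effect of the knockout on Prox1 was not the same at P14 as at P0: the P14 effect minus the P0 effect was -0.69 (log2, edgeR interaction, adjusted p 0.00775). Prox1 was lower in 3 of 3 P14 knockouts than in any P14 control, as were 10.6% of all 17208 genes tested at P14. At P0 its groups overlapped. For Neurod1 the same difference was -1.06 (edgeR adjusted p 0.000668), with 3 of 3 P14 knockouts below all controls and overlapping groups at P0. Hippocampus at P14 and forebrain at P0 also differ in Cre line, in the kind of control and in library numbers, and these cannot be told apart. Neither difference can be assigned to granule cells, because the P0 values are from forebrain RNA.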

How the results depend on the processing

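All 10 members stayed below 0 at P14 under each of the 17 alternatives run there. The 8 calls (1.99% of all genes called) became 5 with the larger strand column (1.45%), which holds fewer reads, and 5 in 1 fit on all 12 libraries (1.83%), for which the cause was not tested, and 4 to 9 when 1 library was left out. At P0 the 1 call became 0 with the GC content offset (2.44% of all genes called; Calb1 -0.55, edgeR adjusted p 0.0581), 4 in the 4 libraries numbered 1407 to 1410, and 0 to 3 when 1 library was left out. The cause was not tested. The interaction kept its 2 calls, Prox1 (-0.78 to -0.60) and Neurod1 (-1.17 to -0.96), under all 22 alternatives. The comparison of the controls called 6 of the 6 members that have at least 10 counts in every library, where fewer members were tested, in place of 10. Prox1 at P0 changed sign with the larger strand column (0.004), as did Trpc6 at P0 without the first knockout (0.169, where leaving out other P0 libraries gave down to -0.458). Over all genes, leaving out 1 library gave 104 to 1808 calls at P14 in place of 342 and 1 to 775 at P0 in place of 147. At P14, Prox1, Neurod1 and Dsp were called under all 16 alternatives that keep the 0.05 threshold, C1ql2 under 15, C1ql3 under 14, Trpc6 under 9, Calb1 under 8, Tdo2 under 7, Dock10 under 4 and Npnt under 0. No paired analysis was possible because the replicate numbers follow accession order and pair no animals. Low counts at P0 limit C1ql2, Dsp, Tdo2 and Trpc6.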

Other observations

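Neighbours of the granule cells in the dentate gyrus gave further values at P14. Over all genes, 0.773% were called lower there and 51.5% were below 0. Of 5 markers of hilar mossy cells, the excitatory neurons below the granule layer, 4 were below 0 and 1 was called lower, Calb2, which is also counted among the early lineage genes. Their summed level was 90.4 to 106 CPM in the controls and 69.3 to 78.2 CPM in the knockouts, without overlap. All 6 markers of Cajal-Retzius cells, which line the dentate molecular layer, were below 0 at P14, with a median of -0.35 and 1 called, Ndnf (-0.67, edgeR adjusted p 0.00377). They summed to 160.0 to 202 CPM in the controls and 114 to 137 CPM in the knockouts. Of 8 interneuron markers 1 was called lower, Gad1 (-0.35, edgeR adjusted p 0.0284), and their median was 0.09.

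Microglia, astrocyte and oligodendrocyte markers had 0 calls by edgeR or DESeq2 at P14, with medians of 0.05, -0.10 and 0.01 and with 1, 1 and 3 genes at an unadjusted p under 0.05. At P0, 0.717% of all genes were called lower and 50.1% were below 0. There, 6 of 6 microglia markers were below 0, with a median of -0.35 and 1 called lower, P2ry12 (-0.93, edgeR adjusted p 0.0368). Also at P0, 5 of 6 astrocyte markers were below 0, with a median of -0.43 and 1 called lower, Aqp4 (-0.59, edgeR adjusted p 0.0416).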
